A study of Mus musculus with 7 samples.

Results

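The 47 genes described here carry a cell through the G2/M transition and mitosis. They are the mitotic kinases and cyclins, the spindle checkpoint, the kinetochore, the spindle, the cytokinesis machinery and the chromosome structure genes, and they were chosen by gene symbol from the raw count table. All 47 were in the table of 24421 gene symbols, and all 47 were among the 13340 genes with enough counts to be tested. RNA-seq was done on sorted Lin-Sca1+Kit+ (LSK) bone marrow cells, a mix of hematopoietic stem cells and multipotent progenitors, to ask how loss of one copy of Ddx41, a DEAD-box RNA helicase gene, changes their transcriptome.

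The 7 samples fell into 2 genotypes, with 4 labelled Ddx41+/+ (replicates 1 to 4) and 3 labelled Ddx41+/- (replicates 6 to 8). Donor bone marrow carried Rosa-CreERT2, a tamoxifen-inducible Cre expressed from a ubiquitous locus, and either 1 floxed copy of Ddx41 or none. Lethally irradiated BoyJ recipients received the donor bone marrow mononuclear cells. Both genotypes were then given 1 mg tamoxifen in 50 µl corn oil in 2 rounds of 5 consecutive days with 2 days between the rounds, so that Cre and tamoxifen were shared by the controls. Bone marrow was taken 8 weeks after transplantation from recipients irradiated in both arms. Ages were not given in the sources used here.

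Library totals ranged from 32234499 to 43751290 counts. The targeted gene, Ddx41, was present at 92.8, 98.7, 93.2 and 106.6 CPM (counts per 1000000 counts of the scaled library) in the Ddx41+/+ samples and at 68.1, 64.4 and 69.5 CPM in the Ddx41+/- samples, so the genotypes did not overlap. Its log2 fold change was -0.54 (SE 0.0714, edgeR adjusted p = 0.0052), a mean of 68.8% of the Ddx41+/+ level. Among LSK markers, Kit, the stem cell factor receptor, stood at 427 to 505 CPM and Cd34 at 647 to 830 CPM, while Ly6a, which encodes Sca-1, stood at 13.3 to 30.5 CPM, and none of the 8 LSK markers was at 0 in any sample. Of these 8, 7 were below 0 in log2 fold change, with a median of -0.25. Cd34, Flt3, Slamf1 and Procr were lower in Ddx41+/- at an unadjusted p under 0.05 (edgeR). Slamf1 and Procr are also in the long-term stem cell list. At this threshold, 5.7% of all tested genes were higher in Ddx41+/- and 4.93% were lower. Neutrophil markers were higher in the Ddx41+/- samples, where 13 of the 14 listed were in the table, none at 0 in any sample, and their summed level was 1523 to 2564 CPM against 880 to 1432 CPM, with 11 of the 13 higher at an unadjusted p under 0.05. The summed level of 20 long-term stem cell genes was 543 to 597 CPM in Ddx41+/- against 634 to 816 CPM, with 19 below 0 in log2 fold change, 1 above it and 8 lower at an unadjusted p under 0.05. Of 12 B cell markers, 10 were above 0 with a median of 0.59, 4 were higher at an unadjusted p under 0.05 and Blnk rose from 4.97 to 9.44 CPM (edgeR adjusted p = 0.0401), although the summed levels of the list overlapped. Summed T and NK cell, late erythroid and macrophage markers also overlapped between the genotypes, and the 4 hemoglobin genes Hba-a1, Hba-a2, Hbb-bt and Hbb-bs were listed at 0 in all samples. Macrophage markers were above 0 in 9 of 10, with a median of 0.23 and none at an unadjusted p under 0.05. Among 6 tested late erythroid markers, 4 were above 0 and 1 was higher at that threshold. The 6 tested T and NK cell markers had 4 above 0 and none at that threshold. Nkg7 alone stood at 221 to 281 CPM, within a T and NK cell sum of 236 to 296 CPM. Car2 stood at 198 to 265 CPM and Tfrc at 133 to 202 CPM, within a late erythroid sum of 394 to 499 CPM. The neutrophil, LSK and stem cell lists moved with genotype. The B cell list was high in Ddx41+/- replicates 6 and 7 only. Its median deviation from each gene's mean was 0.41 and 0.38 there (log2 CPM). In Ddx41+/- replicate 8 it was -0.042, inside the Ddx41+/+ range of -0.50 to 0.0047. The part of these lists in the values of the mitotic genes was not tested.

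In a cycling cell, cyclin B binds Cdk1, Cdc25 phosphatases remove the inhibitory phosphates from Cdk1, and the kinases Plk1 and Aurora A drive the cell into mitosis. The spindle assembly checkpoint then holds the anaphase-promoting complex (APC/C) and its activator Cdc20 in check until every kinetochore is attached, after which cyclin B is degraded, sister chromatids separate and the cell divides. Most of these genes are transcribed as a wave in G2, when the MuvB complex with B-Myb and FoxM1 binds the cell cycle homology region of their promoters, a TTTGAA or TTTAAA element near the start site, often close to CCAAT boxes that bind NF-Y. Long-term stem cells are largely quiescent and multipotent progenitors cycle more, so the level of these transcripts in LSK cells depends on both the makeup and the cycling of the population. In bulk RNA, fewer cells in G2 and M and less of each transcript per cell cannot be told apart.

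Mki67, Top2a and Smc2 had higher means in Ddx41+/- and Cdc20 a lower one, but Mki67 and Cdc20 overlapped between the genotypes. Cdk1 and Ccnb2 encode the kinase and cyclin subunits of the mitotic kinase. The promoters of these genes are shown. Each is the RefSeq window from 250 bases before to 50 bases after the annotated start, written 5′ to 3′ on the strand of the gene in GRCm38.p6, with TTTGAA (or its complement TTCAAA) and CCAAT (or its complement ATTGG) in capitals. They lie at chr7:135716330-135716629 (Mki67, minus strand), chr11:99024140-99024439 (Top2a, minus), chr4:52438971-52439270 (Smc2, plus), chr4:118437294-118437593 (Cdc20, minus), chr10:69352863-69353162 (Cdk1, minus) and chr9:70421505-70421804 (Ccnb2, minus).
Mki67: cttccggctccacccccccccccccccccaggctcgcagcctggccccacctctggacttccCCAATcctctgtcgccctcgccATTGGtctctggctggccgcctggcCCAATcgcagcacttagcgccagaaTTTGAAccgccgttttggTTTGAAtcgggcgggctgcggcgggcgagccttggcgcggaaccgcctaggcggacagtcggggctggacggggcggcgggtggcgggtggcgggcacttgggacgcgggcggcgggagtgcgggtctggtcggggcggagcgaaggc
Top2a: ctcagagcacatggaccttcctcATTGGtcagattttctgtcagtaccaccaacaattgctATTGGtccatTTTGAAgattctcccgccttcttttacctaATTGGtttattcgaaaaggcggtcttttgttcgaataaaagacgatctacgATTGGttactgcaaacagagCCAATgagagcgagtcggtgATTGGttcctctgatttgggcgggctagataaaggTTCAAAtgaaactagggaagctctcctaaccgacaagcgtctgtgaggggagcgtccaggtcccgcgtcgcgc
Smc2: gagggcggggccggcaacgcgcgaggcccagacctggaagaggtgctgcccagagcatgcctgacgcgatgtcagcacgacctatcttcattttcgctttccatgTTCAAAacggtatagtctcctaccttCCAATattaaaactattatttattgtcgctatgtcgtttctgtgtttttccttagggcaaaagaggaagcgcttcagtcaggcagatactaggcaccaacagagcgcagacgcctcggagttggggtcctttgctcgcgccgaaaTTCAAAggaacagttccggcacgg
Cdc20: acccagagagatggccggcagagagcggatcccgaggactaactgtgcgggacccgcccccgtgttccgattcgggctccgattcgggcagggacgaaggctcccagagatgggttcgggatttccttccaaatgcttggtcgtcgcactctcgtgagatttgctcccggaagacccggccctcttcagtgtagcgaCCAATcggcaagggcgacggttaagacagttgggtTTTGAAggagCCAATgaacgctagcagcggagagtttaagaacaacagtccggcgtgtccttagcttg
Cdk1: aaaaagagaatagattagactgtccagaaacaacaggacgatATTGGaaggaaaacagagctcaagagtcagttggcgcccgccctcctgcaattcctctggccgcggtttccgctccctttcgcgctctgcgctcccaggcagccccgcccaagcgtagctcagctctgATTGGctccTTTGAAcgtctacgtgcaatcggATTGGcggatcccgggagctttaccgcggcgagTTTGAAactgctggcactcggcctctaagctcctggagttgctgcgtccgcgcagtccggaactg
Ccnb2: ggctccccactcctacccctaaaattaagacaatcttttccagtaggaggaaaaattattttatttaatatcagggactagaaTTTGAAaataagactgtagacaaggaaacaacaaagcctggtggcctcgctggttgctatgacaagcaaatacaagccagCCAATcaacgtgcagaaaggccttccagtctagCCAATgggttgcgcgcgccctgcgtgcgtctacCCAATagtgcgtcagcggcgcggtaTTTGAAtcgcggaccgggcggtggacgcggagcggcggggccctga

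All 6 windows held TTTGAA, at 1 place in Cdc20 and at 2 in each of the others, and all 6 held CCAAT, from 1 place in Smc2 to 6 in Top2a. RefSeq windows were at hand for 39 of the 47 genes, and TTTGAA on either strand was found in 30 of these 39 (76.9%). Among the 10056 tested genes with a window the share was 14.3%, and among 44 S-phase genes it was 13.6%. Within 50 bases of the start site, TTTGAA was found in 26 of the 39 (66.7%) against 3.93% of the tested genes. CCAAT was found in 30 of the 39 (76.9%) against 42.7% of the tested genes and 56.8% of the S-phase genes. Both TTTGAA and CCAAT were held in one window by 26 of the 39. TTTGAA or TTTAAA was found in 33 (84.6%) against 22.4%, and in 1 gene, Cdca8, a TTTGAA shared bases with another searched motif. The 6 genes with neither TTTGAA nor TTTAAA in the window were Bub1, Mad2l1, Nusap1, Nuf2, Cdc25b and Tacc3. Aurkb, Ccna2, Cdc25c, Incenp, Kif20a, Smc4, Spc24 and Tpx2 had no window.

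Across the 47 genes the Ddx41+/- samples differed little from Ddx41+/+. None of the 47 passed at an adjusted p under 0.05, where 0.217% of the tested genes did (29 genes), and the lowest adjusted p was 0.235 (edgeR), for Smc2. At an unadjusted p under 0.05, 6 of the 47 were higher in Ddx41+/- (12.8%) and 0 were lower, against 5.7% of all tested genes higher and 4.93% lower. The 6 were Smc2, Mki67, Cenpe, Smc4, Top2a and Nuf2. Single libraries moved this count, to 10 when Ddx41+/+ replicate 3 was left out and also when Ddx41+/- replicate 6, the sample with the highest neutrophil marker sum, was left out. It was 3 when Ddx41+/- replicate 7 or 8 was left out, and none was lower in any of these. The share of all tested genes that were higher at this threshold was 5.1% without Ddx41+/+ replicate 3, 7.2% without Ddx41+/- replicate 6, 3.76% without replicate 7 and 4% without replicate 8. DESeq2 also called 0 of the 47 at an adjusted p under 0.05, with a lowest adjusted p of 0.0819. The log2 fold changes ran from -0.13 to 0.26 with a median of 0.020, and 31 of the 47 (66.0%) were above 0, where the median of all tested genes was -0.0048 and 48.8% were above 0. Without Ddx41+/+ replicate 1 the median of the 47 was 0.00049, and with each other library left out in turn it was at most 0.051.

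Intervals were taken for each gene singly, and they do not hold for the 47 genes jointly. The 95% interval of the log2 fold change lay inside -0.5 to 0.5, a 1.41-fold change either way, for each of the 47 genes, with a highest upper bound of 0.43 for Mki67 and a lowest lower bound of -0.34 for Spc24. Mean levels in Ddx41+/- were 91.6% to 120% of those in Ddx41+/+. For 31 of the 47 the difference between the genotypes in mean log2 CPM was smaller than the SD of the 4 Ddx41+/+ samples. The smallest count of a member in a sample was 840, for Cdc25c in Ddx41+/- replicate 7, a counting error of 3.45%. Within a genotype the median SD of log2 CPM was 0.101 over the 47 genes and 0.144 over all tested genes.

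**Figure D1:**
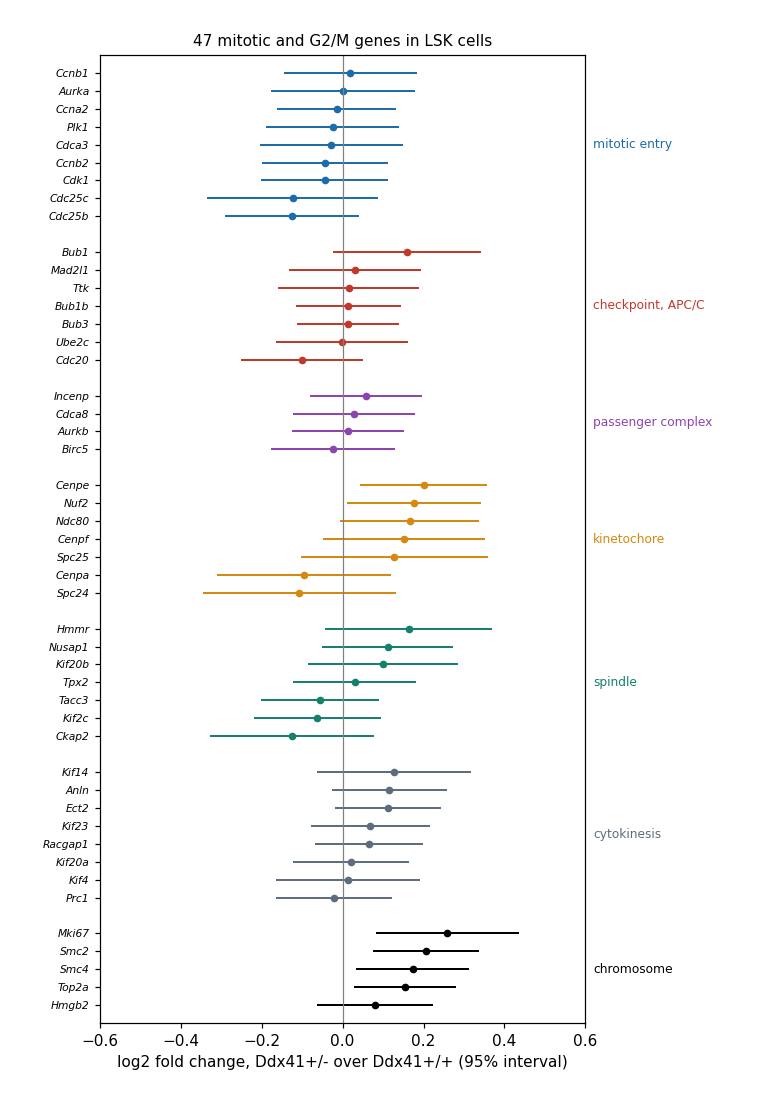
Log2 fold change of each of the 47 genes, Ddx41+/- over Ddx41+/+, on the x axis (points) with its 95% interval (lines), grouped by role and ordered within each role; n = 4 and 3 samples. All intervals lie between -0.5 and 0.5, and those of Mki67, Smc2, Smc4, Top2a, Cenpe and Nuf2 do not reach 0.

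The chromosome structure genes were all above 0 in Ddx41+/-. The 5 genes had a median log2 fold change of 0.174, and 4 of the 5 were higher at an unadjusted p under 0.05, where 5.7% of all tested genes were, and 12.1% of those in the longest quartile of transcript length, which holds 3 of the 4. After correction for transcript length and GC content the median was 0.086 and 1 of the 5, Mki67, stayed under 0.05. Smc2, a subunit of condensin, the complex that compacts mitotic chromosomes, was measured at 203, 208, 200 and 194 CPM in Ddx41+/+ and at 216, 241 and 240 CPM in Ddx41+/-. Each Ddx41+/- sample lay above each Ddx41+/+ sample, with a log2 fold change of 0.21 (SE 0.0609, edgeR adjusted p = 0.235). Smc4, its condensin partner, was at 293, 298, 317 and 310 CPM in Ddx41+/+ and at 311, 353 and 366 CPM in Ddx41+/-. The groups overlapped through Ddx41+/- replicate 6, which lay below Ddx41+/+ replicate 3, and the log2 fold change was 0.17 (SE 0.0646, edgeR adjusted p = 0.343).

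Mki67 encodes the proliferation marker Ki-67, which coats mitotic chromosomes and keeps them apart. Its values were 855, 726, 688 and 805 CPM in Ddx41+/+ and 828, 917 and 1014 CPM in Ddx41+/-, and the groups overlapped because Ddx41+/+ replicate 1 was above Ddx41+/- replicate 6. It had the highest log2 fold change of the 47, at 0.26 (SE 0.0816, edgeR adjusted p = 0.277). Top2a, the type II topoisomerase that untangles sister chromatids, stood at 779, 776, 822 and 801 CPM in Ddx41+/+ and at 829, 925 and 898 CPM in Ddx41+/-. The genotypes did not overlap, although replicate 6 was only just above the Ddx41+/+ samples, and the log2 fold change was 0.15 (SE 0.0584, edgeR adjusted p = 0.355). Hmgb2, a chromatin protein of proliferating cells, was at 433 ± 33.2 CPM (SD, n = 4) and 458 ± 21 CPM (SD, n = 3), within the spread of the samples.

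The kinetochore genes varied among themselves. Their 7 log2 fold changes ran from -0.11 to 0.20 with a median of 0.152. At an unadjusted p under 0.05, 2 of the 7, Cenpe and Nuf2, were higher, where 5.7% of all tested genes were. Cenpe is in the longest quartile of transcript length, where 12.1% of all genes were. After correction for transcript length and GC content the median was 0.078, and Nuf2 and Ndc80 were under 0.05. Cenpe, a kinesin that brings chromosomes to the spindle equator, was at 113, 109, 109 and 124 CPM in Ddx41+/+ and at 123, 125 and 144 CPM in Ddx41+/-. The high value came from replicate 8, and the groups overlapped at Ddx41+/+ replicate 4, with a log2 fold change of 0.20 (SE 0.0734, edgeR adjusted p = 0.336). Ndc80, the microtubule-binding subunit that names its complex, was at 37.1, 37.8, 40.7 and 40.6 CPM in Ddx41+/+ and at 45.6, 43.8 and 41.9 CPM in Ddx41+/-. Its groups did not overlap, and the log2 fold change was 0.17 (SE 0.080, edgeR adjusted p = 0.484).

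The other subunits of the Ndc80 complex did not share one direction. Nuf2, the partner of Ndc80, had a log2 fold change of 0.18 (SE 0.0769, edgeR adjusted p = 0.425) and Spc25 one of 0.13 (SE 0.107, edgeR adjusted p = 0.722). Spc24 was at 55.4, 59.2, 69.9 and 64.3 CPM in Ddx41+/+ and at 63.6, 46.2 and 63.0 CPM in Ddx41+/-, a log2 fold change of -0.11 (SE 0.11, edgeR adjusted p = 0.786). Its low mean rested on Ddx41+/- replicate 7, and the other 2 Ddx41+/- samples were inside the Ddx41+/+ range. Cenpa, the histone H3 variant that marks centromeres, was at 104, 115, 132 and 135 CPM in Ddx41+/+ and at 121, 97.5 and 122 CPM in Ddx41+/-. Replicate 7 was again the lowest, and the log2 fold change was -0.10 (SE 0.0993, edgeR adjusted p = 0.790). Cenpf, a large kinetochore and nuclear matrix protein gene, was at 106 ± 7.62 CPM (SD, n = 4) and 118 ± 18.5 CPM (SD, n = 3).

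The genes of mitotic entry sat close to 0 or below it. Of the 9, 2 were above 0 and 7 below, with a median log2 fold change of -0.028, and none had an unadjusted p under 0.05. Cdk1, the kinase itself, was at 174, 190, 217 and 197 CPM in Ddx41+/+ and at 199, 180 and 188 CPM in Ddx41+/-. The Ddx41+/- samples lay inside the Ddx41+/+ range, with a log2 fold change of -0.04 (95% interval -0.20 to 0.11). Ccnb1, which encodes cyclin B1, was at 127, 148, 147 and 146 CPM in Ddx41+/+ and at 151, 128 and 152 CPM in Ddx41+/-, a log2 fold change of 0.02 (95% interval -0.14 to 0.18). One sample of each genotype was low and the other five lay together. Plk1, the kinase that activates the mitotic entry loop, was at 128, 116, 134 and 147 CPM in Ddx41+/+ and at 130, 124 and 133 CPM in Ddx41+/-, a log2 fold change of -0.02 (95% interval -0.19 to 0.14).

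The Cdc25 phosphatases, which remove the inhibitory phosphates from Cdk1, had the most negative values of this role. Cdc25b was at 58.0, 53.1, 61.4 and 60.4 CPM in Ddx41+/+ and at 55.6, 50.1 and 54.4 CPM in Ddx41+/-. The groups overlapped at Ddx41+/+ replicate 2, and the log2 fold change was -0.13 (SE 0.0770, edgeR adjusted p = 0.595). Cdc25c was at 28.9, 28.5, 30.6 and 33.4 CPM in Ddx41+/+ and at 28.2, 24.9 and 30.5 CPM in Ddx41+/-, with a log2 fold change of -0.12 (SE 0.0990, edgeR adjusted p = 0.703). Replicate 7 was the lowest sample for both. Ccna2, Ccnb2, Aurka and Cdca3 had log2 fold changes between -0.04 and 0.00, and their intervals reached no further than -0.20 and 0.18.

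The spindle checkpoint and APC/C genes were largely level between the genotypes. The 7 genes had a median log2 fold change of 0.013, 5 of them above 0. Bub1b, which encodes the checkpoint protein BubR1, was at 201, 204, 221 and 221 CPM in Ddx41+/+ and at 214, 209 and 218 CPM in Ddx41+/-, so that the Ddx41+/- samples fell within the Ddx41+/+ range. Cdc20, the APC/C activator, was at 174, 169, 188 and 198 CPM in Ddx41+/+ and at 180, 158 and 172 CPM in Ddx41+/-. The groups overlapped, with a log2 fold change of -0.10 (SE 0.0705, edgeR adjusted p = 0.657). Bub1, the checkpoint kinase, had a log2 fold change of 0.16 (SE 0.0852, edgeR adjusted p = 0.542), and Ttk, Bub3 and the APC/C ubiquitin-conjugating enzyme gene Ube2c were at 0.01, 0.01 and -0.0024. Mad2l1 was at 0.03, and at -0.12 after correction for transcript length and GC content.

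The 4 chromosomal passenger complex genes, the Aurora B kinase complex that corrects faulty attachments, had log2 fold changes from -0.02 to 0.06. Aurkb was at 166, 174, 180 and 190 CPM in Ddx41+/+ and at 187, 173 and 178 CPM in Ddx41+/-, a log2 fold change of 0.01 (95% interval -0.12 to 0.15). Its partners Birc5 (survivin), Cdca8 (borealin) and Incenp had Ddx41+/- means at 98.4%, 102% and 104% of the Ddx41+/+ means.

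Among the spindle genes, 4 of 7 were above 0 and the median log2 fold change was 0.030. Tpx2, which activates Aurora A on the spindle, was at 207, 204, 248 and 223 CPM in Ddx41+/+ and at 217, 235 and 222 CPM in Ddx41+/-, with a log2 fold change of 0.03 (95% interval -0.12 to 0.18). Ckap2, a microtubule-stabilising protein gene, was at 52.9, 53.4, 61.6 and 52.3 CPM in Ddx41+/+ and at 54.2, 42.6 and 54.3 CPM in Ddx41+/-. Replicate 7 alone gave the low mean, and the log2 fold change was -0.13 (SE 0.0944, edgeR adjusted p = 0.683). Hmmr, Nusap1 and Kif20b stood at 0.16, 0.11 and 0.10, and Tacc3 and Kif2c at -0.06, each with an interval across 0.

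The cytokinesis genes leaned upward within their error. Of the 8, 7 were above 0, with a median log2 fold change of 0.067, and none had an unadjusted p under 0.05. After correction for transcript length and GC content the median was 0.030 and 6 were above 0. Ect2 was then at 0.032 and Kif14 at 0.0064. Kif23, the kinesin of the centralspindlin complex at the cell midzone, was at 117, 112, 118 and 129 CPM in Ddx41+/+ and at 117, 126 and 131 CPM in Ddx41+/-, with a log2 fold change of 0.07 (95% interval -0.08 to 0.21). Prc1, which bundles midzone microtubules, was at 148, 147, 171 and 162 CPM in Ddx41+/+ and at 151, 155 and 157 CPM in Ddx41+/-, a log2 fold change of -0.02 (95% interval -0.16 to 0.12). Both sets of values overlapped. Ect2, the exchange factor that activates RhoA at the cleavage site, was at 94.7, 95.7, 94.3 and 93.0 CPM in Ddx41+/+ and at 101, 102 and 103 CPM in Ddx41+/-, without overlap and with a log2 fold change of 0.11 (SE 0.0606, edgeR adjusted p = 0.542). The remaining genes of this role, Anln, Kif14, Racgap1, Kif20a and Kif4, had log2 fold changes of 0.12, 0.13, 0.07, 0.02 and 0.01.

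**Figure D2:**
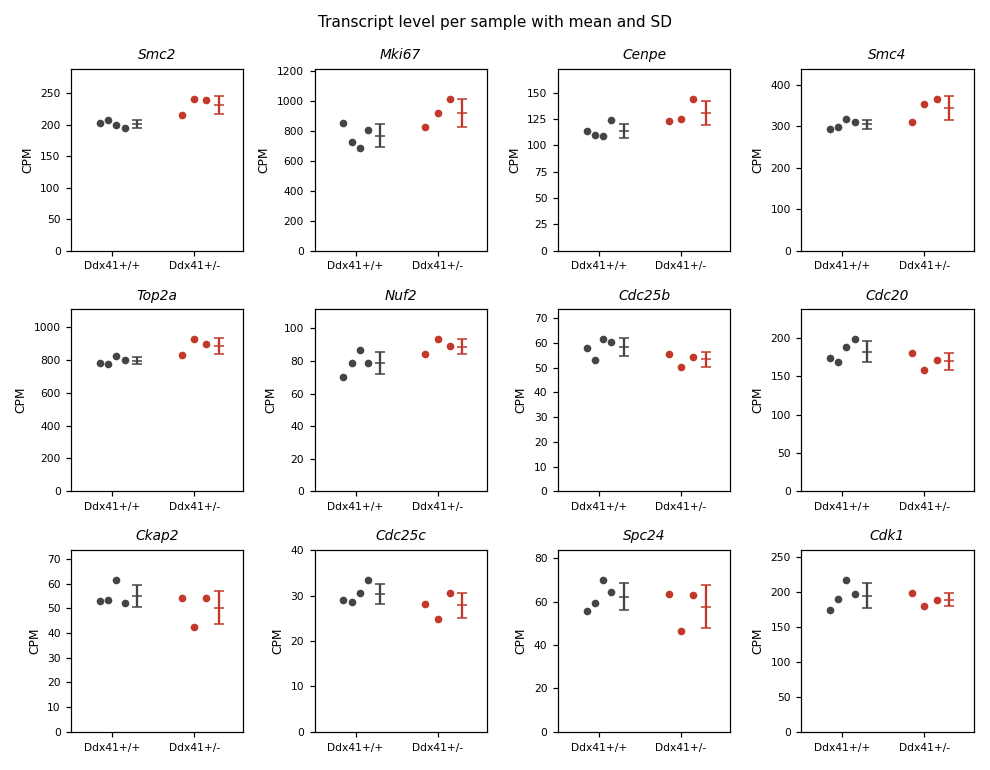
CPM of 12 of the genes in each sample on the y axis, which starts at 0 (points), with the mean and SD of each genotype beside them; n = 4 Ddx41+/+ and 3 Ddx41+/- samples. Smc2 and Top2a are without overlap, while in Cdc25b, Cdc20, Ckap2, Cdc25c and Spc24 the lowest Ddx41+/- point is replicate 7.

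Over the 47 genes, the genotypes did not overlap for 4, and in each of these Ddx41+/- was higher (Smc2, Top2a, Ndc80 and Ect2). That was 8.51% of the genes against 4.85% of all tested genes, and 0 were lower without overlap, against 5.21%. In either direction 10.1% of all tested genes did not overlap. Fewer samples overlap less, and the count rose to 13 when Ddx41+/- replicate 6 was left out, to 9 when Ddx41+/+ replicate 3 was, and to 7 when Ddx41+/+ replicate 2 or Ddx41+/- replicate 7 or 8 was. Of the 13, all were higher, where 11.1% of all tested genes were higher without overlap and 11.9% lower, and of the 9 all were higher, where 7.38% and 7.85% were. Without Ddx41+/+ replicate 2, 6 were higher and 1 lower, against 6.71% of all tested genes in each direction. Without Ddx41+/- replicate 7, 7 were higher and 0 lower against 7.56% and 8.36%, and without Ddx41+/- replicate 8, 5 were higher and 2 lower against 8.11% and 8.56%. Per unit of transcript length, mean levels ran from 6.44 CPM per kilobase for Kif14 to 169 CPM per kilobase for Hmgb2, with Top2a at 159, Ube2c at 153 and Birc5 at 120 CPM per kilobase.

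In the median deviation of the 47 genes, the Ddx41+/+ samples differed from each other more than the genotype means did. The chromosome genes did not share this pattern. Their medians were -0.093, -0.099, -0.017 and -0.047 in Ddx41+/+ and 0.0017, 0.15 and 0.17 in Ddx41+/-, without overlap. Of the 47 genes, 21 had their lowest value in Ddx41+/+ replicate 1 and 12 in Ddx41+/+ replicate 2, while 16 had their highest in Ddx41+/+ replicate 3 and 9 in Ddx41+/+ replicate 4. Ddx41+/+ replicates 1 and 2 had summed levels of 7421 and 7414 CPM and replicates 3 and 4 had 8005 and 7942 CPM. The Ddx41+/- samples had 7898, 8108 and 8330 CPM, so the sums overlapped with those of Ddx41+/+ replicates 3 and 4. The mean sum was 7696 CPM (SD 322) in Ddx41+/+ and 8112 CPM (SD 216) in Ddx41+/-. The median deviation of the 47 genes from their own mean over the 7 samples ran from -0.099 to 0.086 (log2 CPM) in Ddx41+/+ and from -0.00076 to 0.042 in Ddx41+/-, all inside the Ddx41+/+ range. Over the 4 Ddx41+/+ samples this median averaged -0.0091 with an SD of 0.0858, while the 3 Ddx41+/- samples averaged 0.017 with an SD of 0.0222. In Ddx41+/+ replicates 1 and 2, where the mitotic genes were low, the median deviations of the long-term stem cell genes were 0.39 and 0.15, and those of the neutrophil markers were -0.66 and -0.48. In Ddx41+/+ replicates 3 and 4 the stem cell medians were 0.039 and -0.041, and in Ddx41+/- replicates 6, 7 and 8 they were -0.25, -0.13 and -0.16. The neutrophil medians were 0.022 and -0.19 in Ddx41+/+ replicates 3 and 4. They were 0.85, 0.34 and 0.085 in Ddx41+/- replicates 6, 7 and 8, where the mitotic medians were 0.010, -0.00076 and 0.042. Whether the mitotic values follow the makeup of the sorted cells was not tested.

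**Figure D3:**
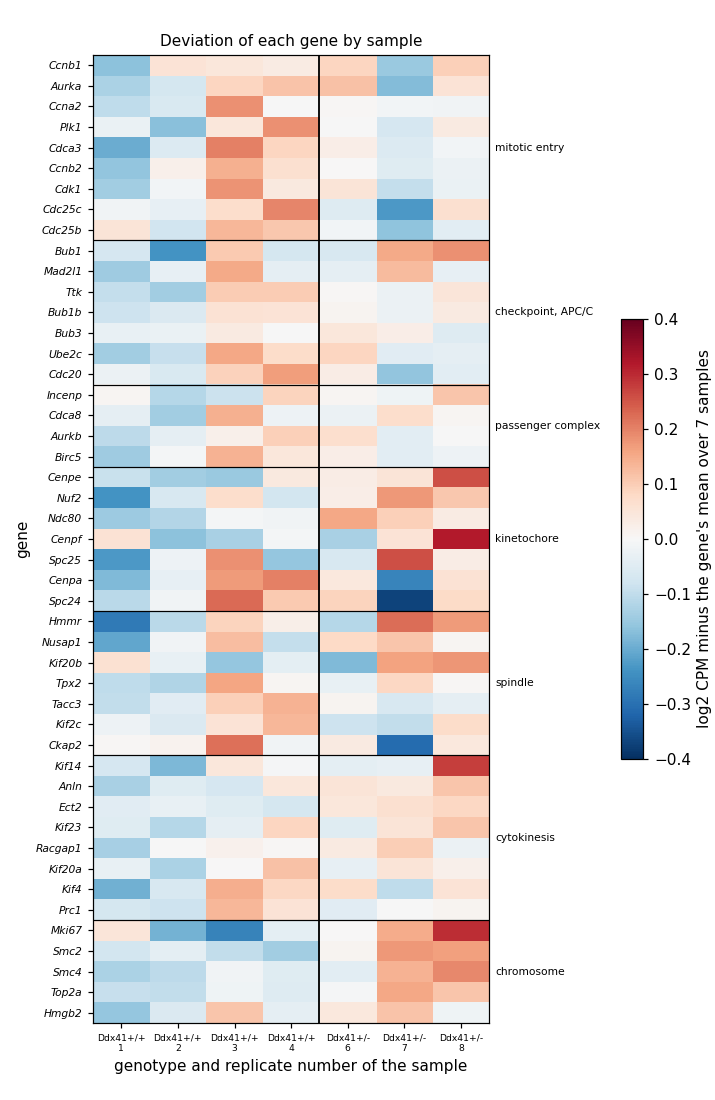
Deviation of log2 CPM from the gene's mean over the 7 samples (colour, red above and blue below) for each of the 47 genes (rows, grouped by role) in each sample (columns, with a vertical line between the genotypes). Ddx41+/+ replicates 1 and 2 are mostly below the mean and replicates 3 and 4 mostly above it, with 6, 3, 35 and 28 genes above their own mean.

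Roles also stood apart within single Ddx41+/- samples. The chromosome genes were longer and lower in GC (medians of 5221 bases and 40.2%) than the mitotic entry genes (2199 bases and 49.3%). In replicate 7, the chromosome genes had a median deviation of 0.15 and the mitotic entry genes one of -0.094, and 8 of the 47 genes had their lowest value there while 7 had their highest. In replicate 8 the chromosome genes stood at 0.17 and the mitotic entry genes at -0.0097, and 12 of the 47 had their highest value there. Replicate 6 was close to the mean for both, at 0.0017 and 0.0054. In Ddx41+/+ replicates 3 and 4 the order was the other way round, with the mitotic entry genes at 0.13 and 0.086 and the chromosome genes at -0.017 and -0.047. Over all tested genes with a length, deviations also had slopes within samples. Per doubling of length these were 0.014 and 0.040 in Ddx41+/- replicates 7 and 8, and -0.045 and -0.029 in Ddx41+/+ replicates 3 and 4. Per 10 points of GC they were -0.073, -0.0095, -0.058 and 0.057 in the same order. Their part in the role differences was not tested.

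Transcript length and GC content moved with the fold changes of these genes and of all genes. Across the 47 genes, the log2 fold change had a Spearman correlation of 0.56 with log2 transcript length and of -0.64 with transcript GC percent, against 0.21 and -0.20 over 13241 tested genes. These are correlations across genes of the same 7 libraries, and genes are not independent replicates. In the shortest quartile of all genes the median log2 fold change was -0.047, and in the longest quartile it was 0.061, where 12.1% of genes had an unadjusted p under 0.05 and were higher. The 11 mitotic genes of that longest quartile had a median of 0.126, and 4 of them had an unadjusted p under 0.05, namely Mki67, Smc2, Cenpe and Top2a. The 8 in the shortest quartile had a median of -0.033. When the counts were corrected within each sample for length and GC, a step added after the data were seen, 3 of the 47 had an unadjusted p under 0.05, Nuf2, Mki67 and Ndc80, and all 3 were higher, where 5.29% of all tested genes were. The log2 fold changes of Smc2, Top2a, Smc4 and Cenpe became 0.085, 0.087, 0.086 and 0.078, and that of Mki67 became 0.13. The chromosome median went from 0.174 to 0.086 and the kinetochore median from 0.152 to 0.078, while the median of the 47 was 0.026. Whether length and GC act on the RNA or on the library was not tested.

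**Figure D4:**
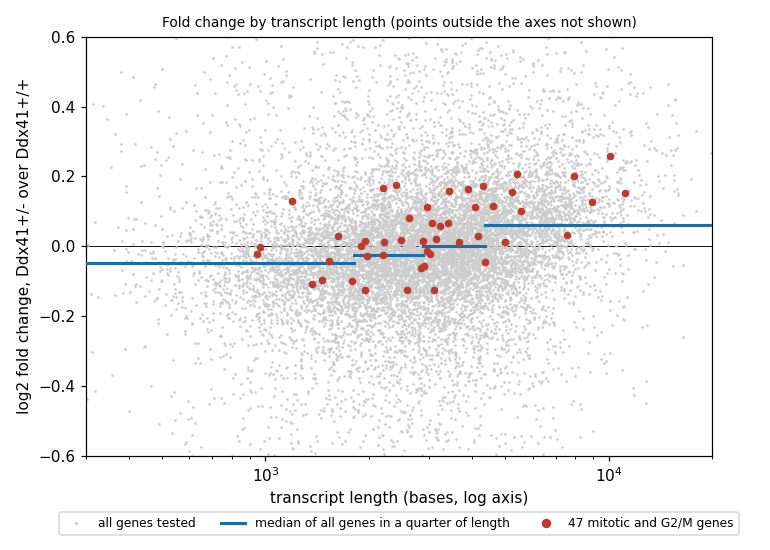
Log2 fold change, Ddx41+/- over Ddx41+/+, on the y axis against transcript length in bases on a log x axis, for all tested genes with a length (grey) and the 47 mitotic and G2/M genes (red), with the median of all genes in each quartile of length (blue lines). Points outside the axes are not shown; the medians rise from -0.047 to 0.061, and 10 of the 11 red points of the longest quartile lie above 0.

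The wider cell division lists were measured in the same fit. Of 79 other mitotic genes, 0 had an adjusted p under 0.05 (edgeR). At an unadjusted p under 0.05, 11 were higher (13.9%) and 1 was lower (1.27%), against 5.7% and 4.93% of all tested genes. Above 0 were 45 (57.0%, against 48.8%), and the median log2 fold change was 0.032. After the length and GC correction 8 were higher and 3 lower, where 5.29% and 5.6% of all tested genes were. Then 42 were above 0, with a median of 0.023. Casc5, the kinetochore scaffold that recruits the checkpoint, was at 65.4, 61.5, 57.7 and 65.2 CPM in Ddx41+/+ and at 69.1, 80.5 and 89.5 CPM in Ddx41+/-, without overlap, with a log2 fold change of 0.35 (SE 0.0858, edgeR adjusted p = 0.118). DESeq2 called it, with an adjusted p of 0.0224, as did edgeR without a filter (0.0368) and without Ddx41+/- replicate 6 (0.0477), and with the length and GC correction its log2 fold change was 0.15. Over its 15 alternatives the adjusted p ran from 0.0224 to 0.446. Kif15, a spindle kinesin, and Ska1, a kinetochore coupling protein gene, had log2 fold changes of 0.23 and 0.36 (edgeR adjusted p = 0.264 and 0.277). The 1 gene lower without the correction was Wee1, the kinase that inhibits Cdk1, at -0.16 (edgeR adjusted p = 0.409). Promoter windows of 63 of these genes held TTTGAA in 52.4%.

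Of the 13 APC/C genes, 1 was higher (7.69%) and 1 lower (7.69%) at an unadjusted p under 0.05, against 5.7% and 4.93% of all tested genes. They were Anapc1, the scaffold subunit, at 0.15, and Anapc11, the RING subunit, at -0.19, and the ubiquitin-conjugating enzyme gene Ube2s stood at -0.13. Of 15 transcriptional regulators of the G2/M wave, 1 was lower (6.67%) and none was higher at an unadjusted p under 0.05. Foxm1 was at 109, 108, 113 and 133 CPM in Ddx41+/+ and at 120, 111 and 127 CPM in Ddx41+/-, a log2 fold change of 0.05, and Mybl2, which encodes B-Myb, had one of 0.03. The lower one was Lin37, a MuvB subunit, at -0.30 (SE 0.105, edgeR adjusted p = 0.314), and Nfya, the NF-Y subunit, stood at -0.08 and E2f8 at 0.08.

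The S-phase genes were more often below 0 than above it. Of 54, 2 were higher (3.7%) and 3 lower (5.56%) at an unadjusted p under 0.05, near the 5.7% and 4.93% of all tested genes. Above 0 were 21 (38.9%), against 48.8% of all tested genes. The median log2 fold change was -0.017, against -0.0048 over all tested genes. Pola1, the catalytic subunit of DNA polymerase alpha, was at 0.18, Rpa2, a single-strand binding protein gene, at -0.16 and Usp1, a deubiquitinase of the replication clamp, at 0.13, each with an edgeR adjusted p of 0.40 or more. The difference between the S-phase and mitotic lists was not tested. Among 11 tested quiescence genes and cyclin-dependent kinase inhibitors, Txnip, the thioredoxin-interacting protein gene that is high in quiescent stem cells, fell in Ddx41+/-, from 231, 230, 244 and 224 CPM to 186, 194 and 157 CPM, with a log2 fold change of -0.38 (edgeR adjusted p = 0.0479). The call was lost without any 1 of Ddx41+/+ replicates 1 to 4 or Ddx41+/- replicates 6 and 8 (adjusted p = 0.0501 to 0.152), and over its 15 alternatives the adjusted p ran from 0.0011 to 0.152 while the log2 fold change stayed between -0.44 and -0.29. The antiproliferative genes Btg2 and Btg1 stood at 0.38 and 0.18 (edgeR adjusted p = 0.320 and 0.427).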

How the data were processed

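RNA-seq libraries of sorted LSK cells were analysed for 4 Ddx41+/+ and 3 Ddx41+/- samples. The authors deposited raw counts per gene symbol, made per the labels with FastQC 0.11.7, HISAT2 2.0.5 and featureCounts 1.5.2 on mm10. The labels and the study's methods name different library kits, so whether the counting used strand is not given in the sources used here. The deposited table is marked as having had 1 further Ddx41+/- library removed, for a reason not given in the sources used here, and 0 columns of sample values were left unused.

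Counts were filtered, scaled by TMM and tested with edgeR 4.0.16 in R 4.3.3 (robust quasi-likelihood, Benjamini-Hochberg over 13340 genes). CPM used TMM library sizes. The lowest chi-square per gene between any 2 libraries was 13.7, so none was a duplicate. Nothing in the sources says how many mice each sample holds, and p-values measure only the spread between these samples, with a biological coefficient of variation of 12.9%. Lengths, GC and loci were those of GENCODE M21 (GRCm38), which held 24033 of 24421 symbols. Scripts were tested on simulated data. Alternatives used DESeq2 1.42.0, limma 3.58.1, other scalings, no filter and each sample left out. The length and GC correction, and all alternatives for named genes outside the 47, were added after the data were seen.

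The genes and lists were chosen with earlier results of these data known. Named were the 5 genes higher and 5 lower with the smallest p, preset genes of each role and the 3 smallest p of each other list, and Nuf2, Ect2 and Wee1 were named after their values were seen.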

Additional observations from a re-analysis of the deposited data

Results flagged for a closer look

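3 of 50 values checked had 1 Ddx41+/+ sample far from the other 3, where chance gives about 1 in 20, or 2.5. Ccnb1 was low in Ddx41+/+ replicate 1, at 127 CPM against 146 to 148 CPM, with a gap of 0.889 of the group's range. Racgap1 was low in the same sample, at 171 CPM against 187 to 190 CPM, with a gap of 0.860 of the range. Ckap2 was high in Ddx41+/+ replicate 3, at 61.6 CPM against 52.3 to 53.4 CPM, with a gap of 0.888 of the range.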

How the results depend on the processing

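None of the 47 genes had an adjusted p under 0.05 in any of 15 alternatives, and Ddx41 kept its call in all of them (-0.56 to -0.49). The count of all genes called, 29, was 15 with library totals, 164 with DESeq2, 10 with limma-voom, 91 without a filter, 14 with the non-robust fit and 70 with the length and GC correction, and 7 to 41 with 1 sample left out. The cause was not tested. Of the 47, 3 had an unadjusted p under 0.05 with that correction, and 3 to 10 with 1 sample left out, all higher, and 6 to 13 did not overlap with 1 sample left out. No paired analysis was made, because the labels give no pairing of the samples. The replicate numbers (1 to 4 against 6 to 8) do not show whether any were paired.

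Of 705 recomputed fold changes, 56 in 22 genes changed sign and none gained a call, with the largest at 0.12 in size. With library totals Aurka was -0.012, Aurkb -0.00018, Bub1b -0.00044 and Bub3 -0.0016, and with upper-quartile scaling Aurka was -0.0065. Ube2c was 0.0011 with median-of-ratios scaling and DESeq2 and 0.0044 with limma-voom. With the correction the values were Plk1 0.028, Mad2l1 -0.12, Cdca3 0.0063, Birc5 0.014, Cenpf -0.018, Kif20b -0.032, Kif4 -0.026 and Ube2c 0.035. With 1 sample left out, the ranges were Ccnb1 -0.031 to 0.093, Aurka -0.059 to 0.081, Aurkb -0.018 to 0.050, Bub1b -0.011 to 0.035, Bub3 -0.0067 to 0.042, Mad2l1 -0.025 to 0.089, Kif4 -0.046 to 0.065, Ttk -0.026 to 0.052, Cdca8 -0.010 to 0.082, Kif20a -0.015 to 0.064, Tpx2 -0.0041 to 0.090, Cdk1 -0.094 to 0.012, Ccna2 -0.050 to 0.049, Cdca3 -0.093 to 0.040, Birc5 -0.072 to 0.021, Ube2c -0.047 to 0.051, Prc1 -0.049 to 0.021, Plk1 -0.077 to 0.037, Cenpa -0.16 to 0.00090 and Spc24 -0.19 to 0.026. Txnip was not called with median-of-ratios scaling (adjusted p = 0.0502), limma-voom (0.0712) or the non-robust fit (0.0757).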
